A study of Mus musculus with 50 samples.

Results

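Knockdown of E2f6 was compared with a control hairpin in mouse embryonic stem (ES) cells by RNA-seq. The comparison takes 4 of the 50 samples of the series: both libraries with a short hairpin against E2f6 (shE2F6, n = 2) and the control libraries shGFP 3 and 4 (n = 2). These controls were chosen out of 6 shGFP libraries, labelled as mock hairpin controls, because they share a high share of mitochondrial transcripts with the shE2F6 libraries. All 6 shGFP libraries served as a check. Every library came from the V6.5 line, grown in defined medium with inhibitors of MEK and GSK3 (2i), which holds ES cells in the naive state. Hairpins against β-catenin (shBcat, n = 2) and HP1γ (labelled shHP1r, n = 2) in the same cells entered the fit and are set beside the results. The sequence of each hairpin, the number of clones and the time after hairpin delivery are not given in the sources used here. No label ties the replicates to separate cultures, and the p-values therefore describe library-to-library spread that may be technical. The series title asks how a complex around β-catenin maintains this state. Of the 17043 genes in the table, 12705 reached 1 FPKM (fragment numbers corrected for transcript length and library size) in at least 2 of the 4 libraries compared and were tested. Genes that reached it in other libraries only were not tested.

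E2F6 is a member of the E2F family that binds DNA with a DP partner but lacks the domain through which other E2F proteins activate transcription, and it acts as a repressor. It is a subunit of the non-canonical Polycomb complex PRC1.6, which also holds MGA, MAX, PCGF6, L3MBTL2 and HP1γ. In mouse ES cells this complex is known for keeping genes of meiosis and germ cell development silent. E2F6 and the MGA and MAX pair recognise different letters, a GC-rich E2F site and an E-box.

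Depth is unknown, since the table holds FPKM values only and no interval that needs counts is given. Mitochondrial transcripts took 22.9% and 22.3% of the FPKM total in the shE2F6 libraries, 20.4% and 19.3% in shGFP 3 and 4, and between 6.23% and 10.3% in the other 8 hairpin libraries. The median absolute log2 difference between 2 libraries was 0.11 for the shE2F6 pair and 0.06 for shGFP 3 and 4, and 0.15 to 0.37 between shGFP libraries of different pairs (1 and 2, 3 and 4, 5 and 6). The labels give no date or batch for these pairs and do not say which was processed with shE2F6. What separates library pairs therefore cannot be told apart from the hairpin, with shGFP 3 and 4 or with all 6 as controls. Defining markers of ES cells were present, with 9 of 9 reaching 1 FPKM. They summed to 981 to 1120 FPKM in the shE2F6 libraries and 1160 to 1220 in shGFP 3 and 4. Over all 6 shGFP libraries their sum reached up to 2970 FPKM. Fibroblast markers summed to 0.332 to 0.596 FPKM in the shE2F6 libraries and 1.2 to 1.56 in shGFP 3 and 4. Primitive endoderm markers summed to 0.568 to 0.616 against 0.578 to 1.05 FPKM, and trophoblast markers to 0.93 to 1.62 against 2.25 to 2.35 FPKM.

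E2f6 itself, on chromosome 12, was at 3.54 and 2.57 FPKM in the shE2F6 libraries and at 8.99 and 8.98 in shGFP 3 and 4. The other 4 shGFP libraries lay between 10.3 and 10.7, so both shE2F6 libraries were below every control, and the labels hold. The fitted log2 change, which here and throughout is on the log2(FPKM + 1) scale and understates low genes, was -1.31 ± 0.15 (SE, limma adjusted p = 0.00226). E2f6 transcript was still measured in both libraries.

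Few genes passed the test, and the largest changes were rises of germline genes from low control levels. Of 12705 genes, 121 rose (0.952%) and 197 fell (1.55%) at a limma adjusted p under 0.05, against a median log2 change of -0.05 over all genes tested. At an unadjusted p under 0.05, limma had 926 genes higher and 1797 lower. With a minimum of 2-fold, here and throughout on the log2(FPKM + 1) scale, 36 rose (0.283%) and 6 fell (0.0472%). Rises ranged from 0.34 to 4.47 on the log2 scale with a median of 0.66, and falls from -0.29 to -1.35 with a median of -0.48. The genes that rose had a median control level of 4.16 FPKM, and those that fell 14.5 FPKM, beside 7.04 for all genes. Median-of-ratios scaling turned the split to 174 rises and 159 falls. Without shGFP 3 or without shGFP 4 the rises came to 30 and 31 and the falls to 13 and 9, and leaving out shE2F6 1 or 2 gave 70 and 47 rises and 129 and 55 falls. With each pair of libraries averaged and set against all 6 shGFP, limma called 0 rises and 0 falls, germline genes included (69 and 164 at an unadjusted p under 0.05), and E2f6 did not pass (adjusted p = 0.728). That averaged fit holds a single value for shE2F6, so its lack of calls cannot tell an absent change from low power. Of the 121 rises, 22 passed the filter through the shE2F6 libraries alone and so had to be higher there.

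**Figure D1:**
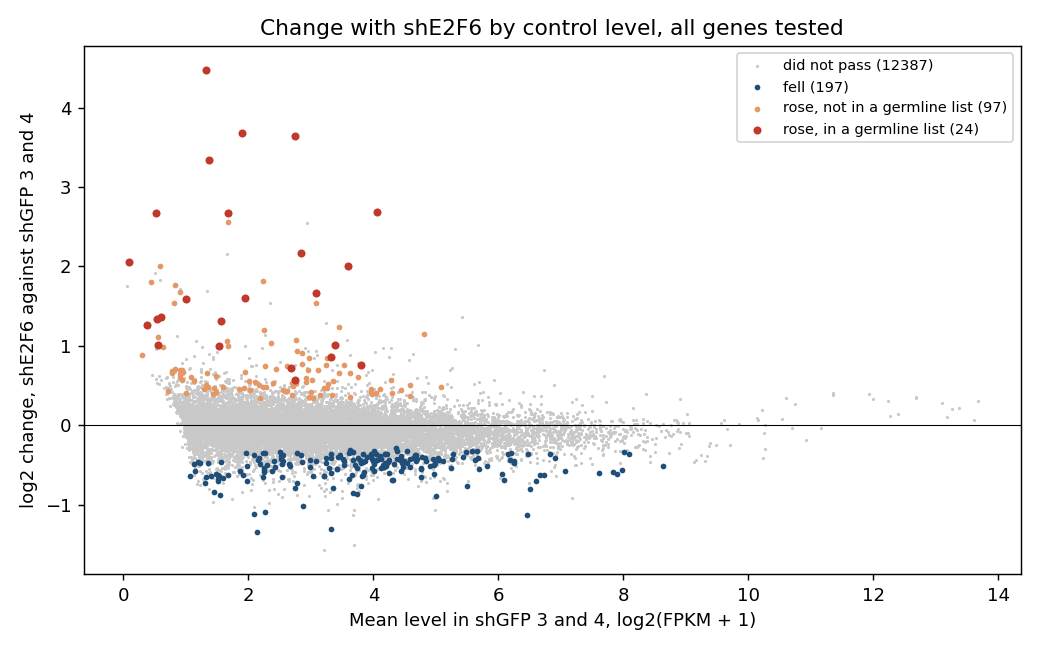
Log2 change with shE2F6 against shGFP 3 and 4 (vertical axis) for the 12705 genes tested, by mean level in those controls in log2(FPKM + 1) (horizontal axis). Red points are the 24 germline list genes that rose, orange points the other rises, blue points the 197 falls; the points above a change of 3 are all red.

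Germline and meiotic genes were collected in 5 lists of 116 symbols, of which 93 were in the table and 66 were tested. Of the 66, 24 rose (36.4%), 0 fell and 42 did not pass, beside 0.952% of all genes that rose and 1.55% that fell. The lists were chosen with earlier results of these data known, so this contrast is a description and no independent support. No member fell in the fit, but Tex19.1 and Ccnb1ip1 were called lower when the 4 libraries were fitted alone (adjusted p = 0.0497 and 0.047), and Tex19.1 also with each shGFP pair as a group (adjusted p = 0.0123). At an unadjusted p under 0.05, limma gave 35 higher and 3 lower. The median log2 change of the 66 was 0.40 and 54 of them were positive, beside a median of -0.05 over all genes. The other 27 members in the table stayed under the filter. Of the 66 tested, 7 passed the filter through the shE2F6 libraries alone and so had to be higher there (Majin, Terb2, Brdt, Tex12, Rnf212, Slc25a31 and Spata22), and 6 of these are among the 24 that rose. Of the 36 genes that rose at least 2-fold, 20 belong to these lists. In these bulk samples a change in the number of cells that express a gene and a change in RNA per cell cannot be told apart.

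Promoter sequences are shown for the germline genes with the largest rises that have an entry in the table used, since the letters recognised by E2F proteins and by MGA with MAX can be read in them. Each line is 100 bases of the RefSeq window from 250 bases before to 50 after a start site (GRCm38.p6), written 5′ to 3′ on the gene's strand. Where a gene had matches, start site and stretch were chosen for the most matches to the motifs marked below. The lines are therefore selected for motif content. Capitals mark the E2F core, TCCCGC or its reverse complement GCGGGA, and the E-box CACGTG. They come from Smc1b (chr15:85131952-85132051, minus strand), Meioc (chr11:102665335-102665434, plus), Tuba3a (chr6:125286148-125286247, minus), Tuba3b (chr6:145615810-145615909, plus), Hormad1 (chr3:95559572-95559671, plus) and Zcwpw1 (chr5:137787281-137787380, plus).
Smc1b: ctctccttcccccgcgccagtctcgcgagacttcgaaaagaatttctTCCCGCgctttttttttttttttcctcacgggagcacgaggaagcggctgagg
Meioc: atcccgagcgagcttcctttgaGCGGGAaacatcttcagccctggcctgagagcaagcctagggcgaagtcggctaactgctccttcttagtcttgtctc
Tuba3a: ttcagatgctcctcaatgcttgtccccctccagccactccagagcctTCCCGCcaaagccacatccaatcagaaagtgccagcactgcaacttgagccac
Tuba3b: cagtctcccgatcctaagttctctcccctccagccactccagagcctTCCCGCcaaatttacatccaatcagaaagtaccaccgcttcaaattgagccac
Hormad1: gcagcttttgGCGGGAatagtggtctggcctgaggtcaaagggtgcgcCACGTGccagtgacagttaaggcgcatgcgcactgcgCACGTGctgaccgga
Zcwpw1: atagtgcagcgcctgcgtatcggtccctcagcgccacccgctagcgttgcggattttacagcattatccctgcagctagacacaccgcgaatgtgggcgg
Tuba3a and Tuba3b carry the core within the same run of letters, Hormad1 holds 1 core and 2 E-boxes, and the Zcwpw1 window holds neither motif.

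Cohesin and chromosome axis genes build the scaffold on which meiotic chromosomes pair. Of the 11 tested of this list, 5 rose, 0 fell and all 11 changes were positive, with a median of 0.87. Smc1b, a meiotic cohesin subunit on chromosome 15 from 85064689 to 85131957, was at 62.3 and 47.5 FPKM with shE2F6 and at 1.52 and 1.47 in shGFP 3 and 4. The other shGFP libraries read 1.17 to 1.49, so the groups lay far apart, and the log2 change was 4.47 ± 0.19 (adjusted p = 1.03e-06). Fam118a and Gm10923 overlap Smc1b and did not pass, with log2 changes of -0.23 and 0.00. Stag3, the meiosis-specific partner of the cohesin ring, was at 31.5 and 30.6 against 6.24 and 6.05 FPKM, a log2 change of 2.17 ± 0.09 (adjusted p = 6.16e-07). Hormad1, an axis protein that marks unpaired chromosomes, had the highest level of the germline genes that rose, at 109 and 103 FPKM against 15.4 and 15.8, and 12.6 to 14.5 in the other controls. Its log2 change was 2.69 ± 0.08 (adjusted p = 8.71e-08), and no shE2F6 value came near a control. Tex12 and Syce1, both of the central element of the synaptonemal complex, rose by 1.26 ± 0.14 (adjusted p = 0.00212) and 0.87 ± 0.19. Tex12 remained low, at 2.13 and 2.08 against 0.346 and 0.247 FPKM, and Syce1 was at 15.7 and 19 against 9.68 and 8.42 (adjusted p = 0.0451). The Syce1 call was lost without shGFP 2, 3, 4 or 5 or either shE2F6 library (adjusted p up to 0.281). Sycp3, of the lateral element, was at 5.56 and 6.63 against 3.92 and 5.19 FPKM and did not pass (adjusted p = 0.472), and the cohesin gene Rec8 did not pass either (adjusted p = 0.124). Stag3 overlaps Gal3st4 and Gpc2, and Tex12 overlaps Il18, so reads could be split among them.

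Genes of recombination and of telomere tethering were the other large meiotic group, with 9 of 18 tested that rose, 0 that fell and a median log2 change of 0.67. Majin (listed as 1700123I01Rik), which anchors meiotic telomeres to the nuclear envelope, was at 8.0 and 8.22 FPKM against 0.347 and 0.527, a log2 change of 2.67 ± 0.13 (adjusted p = 2.05e-06). Its partner Terb2 (listed as 4933406J08Rik) was at 2.44 and 2.98 against 0.415 and 0.505, and rose by 1.34 ± 0.16 (adjusted p = 0.00212). Both were near or under 1 FPKM in every shGFP library. Zcwpw1, a reader of the histone marks placed at recombination sites, was at 19.5 and 18.8 FPKM against 2.08 and 2.27, a log2 change of 2.67 ± 0.12 (adjusted p = 1.17e-06). Rnf212, which marks crossover sites, was at 3.41 and 3.43 FPKM while the 6 shGFP libraries read 0.0399 to 0.212, and the log2 change was 2.06 ± 0.10 (adjusted p = 1.22e-06). The shE2F6 libraries thus gave almost one value for this gene, far above each control. Tex11, an X-linked gene needed for crossovers, was at 10.6 in both shE2F6 libraries and at 2.71 and 2.96 FPKM in the matched controls (log2 change 1.6 ± 0.15, adjusted p = 0.00049). Brme1 (listed as 4930432K21Rik) and Hsf2bp, which act together on BRCA2 in meiosis, rose by 1.31 ± 0.13 and 1.02 ± 0.18 (adjusted p = 0.000686 and 0.0228), to 6.37 and 6.28 FPKM and to 20.2 and 20.0. Spata22, a partner of single-strand binding proteins, rose by 1.01 ± 0.18 to 1.7 and 2.27 FPKM, and Dmc1, the meiotic recombinase, by 0.57 ± 0.13 to 9.74 and 8.21 against 5.43 and 5.97. Dmc1 overlapped the other shGFP libraries, which reached 8.33 FPKM, and its call (adjusted p = 0.0491) was lost when any 1 shGFP or shE2F6 library was left out. Hsf2bp and Spata22 lost theirs without shGFP 3, shGFP 4 or shE2F6 2, and Hsf2bp also without shE2F6 1. Spo11, Prdm9 and Mei4, which act when recombination starts, and Msh4 were under the filter. Zcwpw1 overlaps Pilra, Rnf212 overlaps 1700047L14Rik and Spata22 overlaps Aspa, and the protocol does not say that strand was used in counting.

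**Figure D2:**
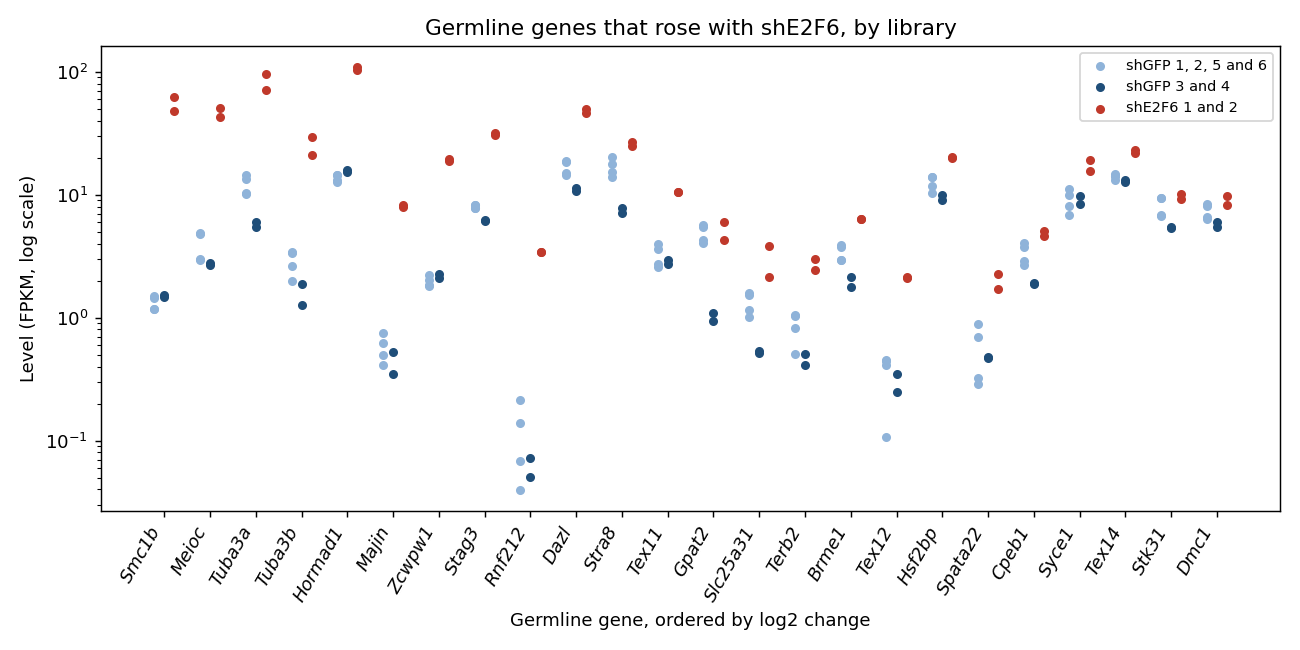
FPKM (log axis) of the 24 germline genes that rose, in each shE2F6 library (red), shGFP 3 and 4 (dark blue) and the other 4 shGFP libraries (light blue), ordered by log2 change. Red points lie above every blue one for 21 of the 24, and Gpat2, Stk31 and Dmc1 are the exceptions.

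Among RNA-binding and piRNA genes, 4 of 15 tested rose, 0 fell and the median log2 change was 0.22. Meioc (listed as Gm1564), an RNA-binding partner that prolongs meiotic prophase, was at 50.7 and 43.1 FPKM against 2.78 and 2.69, and at 2.95 to 4.9 in the other shGFP libraries. The log2 change was 3.68 ± 0.40 (adjusted p = 0.00158). Dazl, which controls translation in germ cells, was at 49.4 and 45.7 against 10.7 and 11.4 FPKM, with other controls at 14.4 to 18.7, and rose by 2.01 ± 0.18 (adjusted p = 0.000469). Gpat2, linked to piRNA production in mouse testis, read 5.95 and 4.29 FPKM against 0.938 and 1.08, but the other shGFP libraries were at 4.03 to 5.64. It rose by 1.59 ± 0.26 against the matched pair (adjusted p = 0.0145) and did not pass against all 6 (adjusted p = 0.401), nor without shGFP 3, shGFP 4 or shE2F6 1. Stk31, a tudor domain kinase of spermatogonia, rose by 0.72 ± 0.15 to 9.14 and 10.1 from 5.38 and 5.49 FPKM, with other controls up to 9.34, and its call was lost without shGFP 3, shGFP 4 or either shE2F6 library. Mael and Ddx4, of the piRNA pathway, were higher in both shE2F6 libraries without passing. Mael was at 9.14 and 9.91 against 4.38 and 3.29 FPKM (log2 change 1.13, adjusted p = 0.0613), and Ddx4 at 12.3 and 17.9 against 7.85 and 7.34 (0.88, adjusted p = 0.104). Piwil1, Tdrd1, Tdrd5, Tdrd9 and Asz1 stayed under the filter. As a marker set, the 7 germ cell markers summed to 105 and 109 FPKM with shE2F6 and to 38.7 and 39.8 FPKM in shGFP 3 and 4, while the 6 shGFP libraries reached up to 72.1 FPKM, and Dazl and Stra8 gave most of the sum with shE2F6.

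Regulators of germ cell fate were the list with the fewest calls, 1 of 13 tested, with a median of 0.34. Stra8, the gatekeeper of entry into meiosis, was at 24.9 and 27.0 FPKM against 7.81 and 7.14, and rose by 1.67 ± 0.14 (adjusted p = 0.000351). The other shGFP libraries stood between both groups, at 13.8 to 20.4, and the test against all 6 gave an adjusted p of 0.0923. Other regulators did not pass: Sohlh2 was at a mean of 21.2 against 15.1 FPKM (adjusted p = 0.154), Tfap2c at 27.4 against 20.1 (adjusted p = 0.164) and Prdm14 at 11.1 against 10.1 (adjusted p = 0.829). The X-linked homeobox genes Rhox5, Rhox6 and Rhox9 did not pass either.

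Cytoskeletal and metabolic genes of germ cells included the testis α-tubulins, and 5 of 9 tested rose with a median log2 change of 0.76. Tuba3a was at 95.3 and 70.8 FPKM against 5.42 and 5.97, with other controls at 10.1 to 14.5, a log2 change of 3.64 ± 0.28 (adjusted p = 0.00015). Tuba3b was at 29.5 and 21.1 against 1.26 and 1.89 FPKM, a change of 3.34 ± 0.26 (adjusted p = 0.00015). The 2 genes lie apart on chromosome 6 but are near-identical copies, so how reads were split between them is uncertain, and their rises are not independent. Slc25a31, the germline ADP/ATP carrier, was at 2.15 and 3.85 FPKM against 0.517 and 0.531, and rose by 1.36 ± 0.23 (adjusted p = 0.0168). Tex14, needed for the bridges that join germ cells, rose by 0.76 ± 0.07 to 22 and 23 from 13.1 and 12.7 FPKM (adjusted p = 0.000686). Cpeb1, which regulates poly(A) tails in oocytes, rose by 1.00 ± 0.16 to 4.59 and 5.03 from 1.87 and 1.92. Slc25a31 and Cpeb1 did not pass without shGFP 3, shGFP 4 or shE2F6 2, and neither passed against all 6 shGFP (adjusted p = 0.0626 and 0.0924). Of the 24 germline rises, 16 kept their call without any 1 shGFP or shE2F6 library.

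The E2F letters were counted in the promoter windows of each class of gene, as a description with no test. Promoter windows were matched for 27 of the 36 genes that rose at least 2-fold, and 22 of them (81.5%) held the core TCCCGC on either strand, beside 41.6% of the 8394 tested genes with a window. Among genes that rose less than 2-fold the share was 60.6%, and among genes that fell 39.6%. The longer form TTCCCGCC, which contains the core, was in 37.0%, 13.6% and 0.694% of the same classes and in 5.15% of tested genes. The E-box CACGTG was in 25.9% of rises of at least 2-fold, 12.1% of smaller rises, 19.4% of falls and 12.5% of tested genes; its longer form TCACGTGA was in 0 of the 27. Of all 32851 windows in the RefSeq table, 20.0% held the core, 2.19% the longer form and 7.15% the E-box. Mean GC content was 61.4% for rises of at least 2-fold and 61.1% for tested genes. Within the germline lists, 16 of 21 genes that rose held the core and 9 the longer form, beside 15 and 2 of 31 that did not pass, while the E-box was in 7 and 13. Dazl, Stra8, Syce1, Stk31 and Zcwpw1 rose without the core in their windows. Majin, Tex11 and Terb2 had no window.

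**Figure D3:**
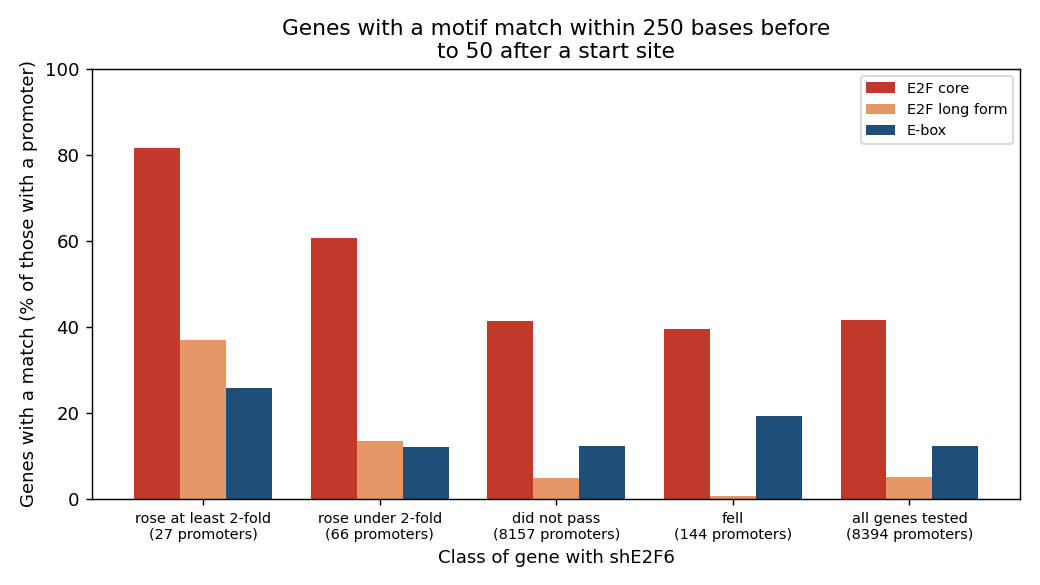
Percentage of genes with at least 1 match to the E2F core, its longer form or the E-box in a promoter window, by class of gene with shE2F6. The core stands at 81.5% for rises of at least 2-fold and 41.6% for all genes tested; the bars are counts of letters, with no test.

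Outside the germline lists, 14 genes that rose at least 2-fold were in none of the lists used. Several have known roles in germ cells. Rbm44, a protein of the bridges between germ cells, was at 3.91 and 3.57 FPKM against 0.385 and 0.336, a log2 change of 1.80 ± 0.17 (adjusted p = 0.000647). Wbp2nl, a sperm head protein, was at 5.01 and 5.07 against 0.629 and 0.927 FPKM (1.77 ± 0.17, adjusted p = 0.000665). Ulbp1, a ligand of the NKG2D receptor of natural killer cells, was at 5.08 and 5.0 against 0.626 and 0.392 (2.01 ± 0.12, adjusted p = 1.12e-05). These 3 genes and Cntln were under 1 FPKM in shGFP 3 and 4, passed the filter through the shE2F6 libraries alone and so had to be higher there. Cntln, a linker of centrioles, was at 4.66 and 5.26 against 0.948 and 0.781 FPKM (1.68 ± 0.11, adjusted p = 4.17e-05), while Gm12418 and Gm12419, which overlap it, had log2 changes of -0.01 and 0.01 and did not pass. Prelid2 differed most between the shE2F6 libraries, at 22.5 and 10.7 FPKM against 4.29 and 3.16 (1.82 ± 0.37, adjusted p = 0.0369), and lost its call without shGFP 3, shGFP 4 or shE2F6 1. The remaining genes named here were chosen after their values were seen. Cyct, the testis cytochrome c, was at 63.4 and 58.4 against 30 and 24.1 FPKM (1.15 ± 0.25, adjusted p = 0.0437), and Ddx43, an RNA helicase of germ cells, at 13.8 and 12.7 against 5.35 and 6.27 (1.07 ± 0.19, adjusted p = 0.0234). Dmrt1, a testis transcription factor, was at 15.8 and 16.5 against 8.06 and 9 FPKM (0.85 ± 0.19, adjusted p = 0.0472). Slfn9, a Schlafen gene, was at 10.7 and 9.24 against 3.64 and 3.89 FPKM (1.20 ± 0.14, adjusted p = 0.00234).

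Subunits of PRC1.6 other than E2f6 did not pass. Of 15 tested, 1 (E2f6) was called and 14 did not pass, beside 2.5% of all genes called in either direction. At that share few or no calls would come among 14 genes, so their absence says little about the complex. The median log2 change was -0.05, that of all genes. Mga was at 33.4 and 32.9 FPKM against 33.1 and 35.9 (log2 change -0.05 ± 0.08), and Max at 44.2 and 49.8 against 44.0 and 42.1 (0.12 ± 0.08). Pcgf6 had a log2 change of -0.11 ± 0.08 and did not pass. L3mbtl2 was the lowest after E2f6, at 14.2 and 14.1 against 17.6 and 18.7 FPKM (-0.34 ± 0.14, adjusted p = 0.185). Cbx3, which encodes HP1γ, was at 61.7 and 47.6 against 56.7 and 63.2 FPKM (-0.14 ± 0.13, adjusted p = 0.586).

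In the E2F family, 3 of 13 tested fell, E2f6 among them. E2f4, a repressor bound by pocket proteins, was at 62.4 and 55.1 FPKM against 97.6 and 94.3, a log2 change of -0.70 ± 0.08 (adjusted p = 0.00212). E2f8, an atypical repressor, was at 6.18 and 6.4 against 9.82 and 9.47 FPKM (-0.55 ± 0.08, adjusted p = 0.00756). The other 4 shGFP libraries lay at 61.1 to 66.8 FPKM for E2f4, next to shE2F6, and at 4.17 to 4.77 for E2f8, below it, and neither passed against all 6 shGFP (adjusted p = 0.23 and 0.842). The direction of E2f8 turned there, to 0.08. E2f1, E2f3 and E2f5 did not pass. Genes of the cell cycle and DNA replication that E2F activators control gave 0 calls of 35 tested (2 higher and 8 lower at an unadjusted p under 0.05 in limma), with changes between -0.42 and 0.28 and a median of -0.12. Over all genes, 318 (2.5%) were called in either direction, and 926 were higher and 1797 lower at an unadjusted p under 0.05 in limma.

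Falls reached less far than rises; 11 of the 197 belong to any list used, and 0 to a germline list. Besides E2f6, 5 genes fell at least 2-fold. Myc, the growth regulator, was at 0.766 and 0.706 FPKM against 3.25 and 3.59 (-1.35 ± 0.22, adjusted p = 0.0161). The other shGFP libraries were at 0.804 to 1.14, close to shE2F6, and the test against all 6 gave -0.55 (adjusted p = 0.312); the call was also lost without shGFP 3, shGFP 4 or either shE2F6 library. Selenow (listed as Sepw1), a small selenoprotein, was at 38.1 and 41 against 90 and 84.6 FPKM (-1.12 ± 0.11, adjusted p = 0.000739) with other controls at 58.8 to 64.8. It kept its call without any 1 shGFP or shE2F6 library and against all 6 shGFP. Foxd3, a transcription factor of pluripotent cells, was at 1.11 and 1.43 against 3.81 and 3.85 FPKM (-1.09 ± 0.16, adjusted p = 0.00756), with other controls at 2.12 to 3.71. Palm3, of the paralemmin family, was at 3.24 and 2.07 against 6.35 and 6.26 FPKM (-1.02 ± 0.13, adjusted p = 0.00518). Foxd3 and Palm3 lost their calls without shGFP 3 or shGFP 4. Sall3, a zinc finger factor, was at 1.26 and 0.721 against 3.42 and 3.13 FPKM (-1.12 ± 0.25, adjusted p = 0.0474) and lost its call when any 1 shGFP or shE2F6 library was left out.

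Among falls of under 2-fold, G3bp2, a stress granule protein, was at 44.7 and 38.1 FPKM against 67.6 and 66.8 (-0.69 ± 0.08, adjusted p = 0.00246), and Brms1, of a histone deacetylase complex, at 10.9 and 11.9 against 18.5 and 19.3 (-0.68 ± 0.08, adjusted p = 0.00199). Mospd3 fell by 0.79 ± 0.10 to 4.54 and 5.37 from 9.37 and 9.19 FPKM. Of the 15 largest falls outside the range of all 6 shGFP libraries, leaving out predicted genes and genes under 2 FPKM in both groups, these 3 with Selenow and E2f6 are the 5 that kept their call without any 1 shGFP or shE2F6 library. Among the 15 rises chosen in the same way, 14 did. Apela, a peptide hormone of early embryos, was at 6.72 and 5.38 against 11.8 and 11.6 FPKM (-0.86 ± 0.17, adjusted p = 0.0303) and did not pass against all 6 shGFP, whose other libraries were at 7.19 to 7.41. Mras, a Ras-related GTPase, was at 1.44 and 1.4 against 2.92 and 2.98 (-0.71 ± 0.10, adjusted p = 0.00605) and lost its call without shGFP 3 or 4. Pla2g1b, H2-M5, Bcam and Ifrd2 fell by 0.64 to 0.76 and each lost its call without shGFP 3 or without shGFP 4.

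Of 49 genes of core, naive, and formative and primed pluripotency tested, 0 rose and 3 fell (6.12%, beside 1.55% of all genes). Of 11 core genes, 1 fell: Pou5f1, which encodes OCT4, was at 91.4 and 86.7 FPKM against 129 and 137 (-0.57 ± 0.11, adjusted p = 0.0312), and the other shGFP libraries read 267 to 336. The call was lost without shGFP 3, shGFP 4 or either shE2F6 library, and also against all 6 shGFP (adjusted p = 0.0626). Sox2 was at 70 and 72.3 FPKM against 67.6 and 70.8, and Nanog at 232 and 206 against 227 and 237, and neither passed (adjusted p = 0.891 and 0.867). Of 21 naive pluripotency genes, 0 passed (5 at an unadjusted p under 0.05 in limma), and their median was -0.18, beside -0.05 for all genes. Zfp42, a naive marker also known as Rex1, was at 120 and 125 against 146 and 139 FPKM (-0.22 ± 0.12, adjusted p = 0.324). Of 17 formative and primed genes, 2 fell, Foxd3 and the DNA methyltransferase gene Dnmt3b. Dnmt3b was at 6.07 and 6.59 FPKM against 12.2 and 12.6 (-0.87 ± 0.16, adjusted p = 0.0255), but at 6.17 to 7.24 in the other controls, and it did not pass against all 6 (adjusted p = 0.376). Markers of mesoderm, endoderm, neuroectoderm and trophoblast gave 0 calls among 2, 3, 5 and 9 tested (1, 1, 3 and 3 at an unadjusted p under 0.05 in limma). Over all genes tested, 2.5% were called in either direction, so 0 calls among so few genes says little. Genes of the 2-cell stage were all negative, 15 of 15, with a median of -0.59, and 1 fell, Gm5662 (-0.59 ± 0.13, adjusted p = 0.0493). That call was lost without any 1 shGFP library or shE2F6 1 (adjusted p up to 0.277), under median-of-ratios scaling (adjusted p = 0.0576) and in other settings, while fits with each shGFP pair as a group called 7 of the 15. Over all genes tested, each shGFP pair as a group gave 1037 falls of 12705. Against all 6 shGFP, 3 of the 15 fell, beside 1.65% of all genes. Without shE2F6 1 the median was -0.37 with 4 of 15 positive, and without shE2F6 2 it was -0.72. Zscan4c, of a family of near-identical copies whose reads may be split, was at 16.9 and 25.7 against 33 and 34.1 FPKM and did not pass (adjusted p = 0.0586). Other Polycomb genes did not pass, except Epop (listed as E130012A19Rik), a PRC2 partner, at 18.7 and 14 against 29.7 and 32.1 FPKM (-0.89 ± 0.14, adjusted p = 0.0116), whose call was lost without shGFP 3, shGFP 4 or shE2F6 2.

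Glycolysis and hypoxia genes were higher against the matched pair than against all 6 controls. Of 21 glycolysis genes tested, 2 rose, 19 were positive and the median was 0.62 against shGFP 3 and 4, but 0.12 against all 6, where 0 were called, and -0.27 against shGFP 1, 2, 5 and 6. Fitted with the 4 libraries alone or with each shGFP pair as a group, the same contrast called 13 of 21 higher in either fit. Without shGFP 3, shGFP 4 or either shE2F6 library, 0 were called. Pfkp, a phosphofructokinase, was at 24.6 and 24.9 FPKM against 9.69 and 10.2 (1.23 ± 0.21, adjusted p = 0.0175), while the other shGFP libraries spanned 16.9 to 27.1. Aldoc, an aldolase, was at 4.43 and 3.78 against 0.799 and 0.717 FPKM (1.54 ± 0.35, adjusted p = 0.049), with other controls at 2.19 to 6.09. The Pfkp call was lost without shGFP 3, shGFP 4 or either shE2F6 library, and that of Aldoc without any 1 of these or shGFP 1 or 6. The shE2F6 libraries thus lay within the range of the other controls for both. Of 13 hypoxia genes, 0 passed (6 at an unadjusted p under 0.05 in limma), with a median of 0.83 against the matched pair and 0.25 against all 6. For hypoxia genes the 4 libraries alone gave 7 rises, pairs as groups 9 and median-of-ratios scaling 2. Over all genes tested these settings gave 301, 508 and 174 rises. Bnip3, a mitophagy receptor induced by low oxygen, was at 56.2 and 33.2 against 5.68 and 7.62 FPKM (2.54 ± 0.65, adjusted p = 0.0662), and shGFP 5 and 6 stood at 40.5 and 32.7. Mitochondrial transcripts, by which the controls were chosen, had a median of 0.21 against the matched pair and 1.18 against all 6, with 0 of 13 called in either (4 and 11 at an unadjusted p under 0.05 in limma). Cholesterol synthesis had 1 rise of 23, Msmo1 (0.41 ± 0.09, adjusted p = 0.0482), whose change was -0.0033 against all 6 and whose call was lost when any 1 shGFP or shE2F6 library was left out. Single falls were Trp53 among p53 pathway genes (-0.48 ± 0.09, adjusted p = 0.0282; lost without shGFP 3, shGFP 4 or shE2F6 1) and the serine synthesis gene Psat1 among genes of amino acid stress (-0.32 ± 0.07, adjusted p = 0.0351), whose call was lost without any 1 of the shGFP and shE2F6 libraries but shGFP 1 (adjusted p up to 0.245). Imprinted genes, ERK feedback genes and nuclear subunits of the respiratory chain gave 0 calls among 18, 12 and 31 tested (6, 5 and 6 at an unadjusted p under 0.05 in limma). Over all genes tested, 0.952% rose and 1.55% fell against shGFP 3 and 4, so 0 calls in lists of these sizes says little.

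**Figure D4:**
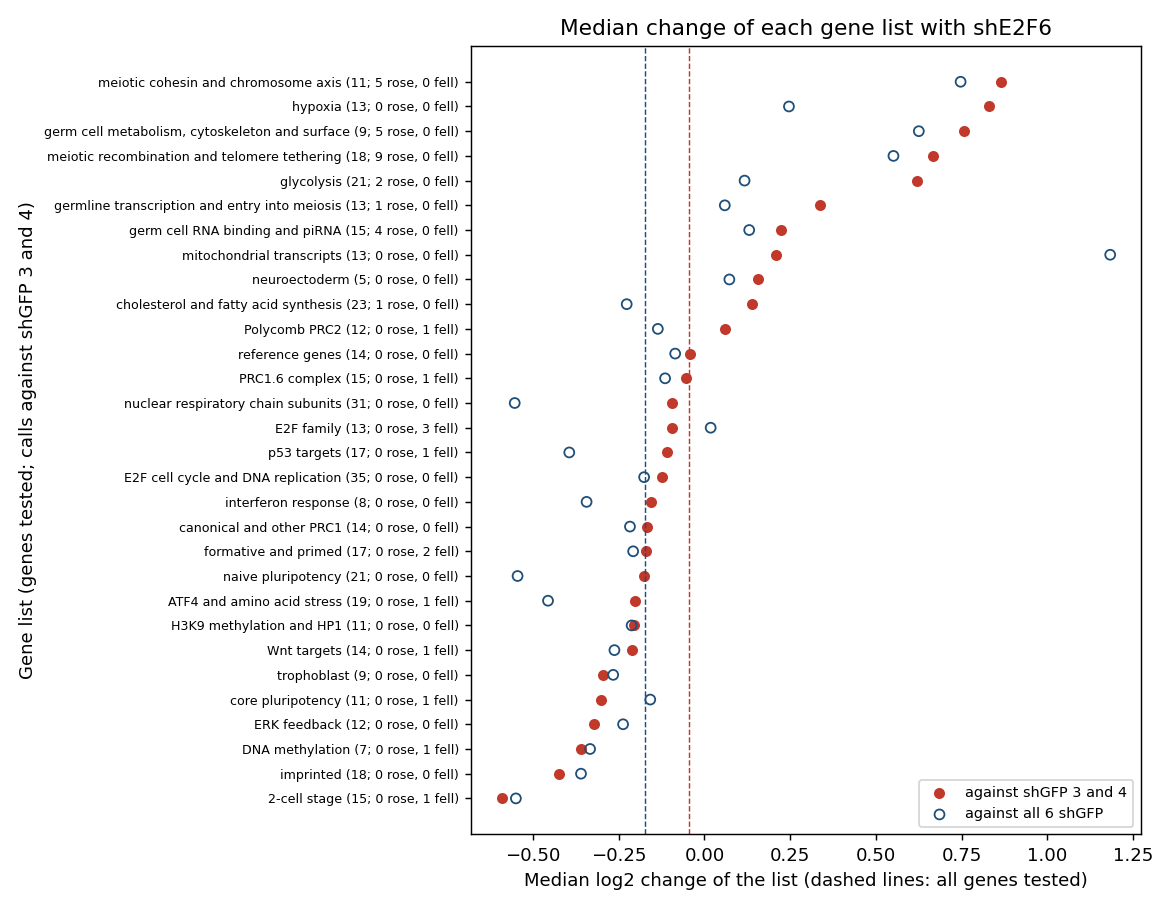
Median log2 change with shE2F6 of each list with at least 5 genes tested, against shGFP 3 and 4 (red) and against all 6 shGFP (open blue), with the medians of all genes as dashed lines. Meiotic cohesin and axis genes stand at 0.87 and 0.75, while hypoxia moves from 0.83 to 0.25 and mitochondrial transcripts from 0.21 to 1.18.

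With all 6 shGFP libraries as controls and no term for the mitochondrial share, 88 genes rose (0.693%) and 210 fell (1.65%), with a median over all genes of -0.17. Of the 121 rises, 62 were called again and 83 had both shE2F6 libraries above all 6 controls, beside 1041 of all genes tested (8.19%). Of the 197 falls, 112 were called again and 172 lay below all 6, beside 3383 genes (26.6%). Signs differed between both choices of control for 12 of the rises and 8 of the falls. Of the 24 germline rises, 17 passed again and 21 lay above all 6 controls; Stra8, Gpat2, Slc25a31, Hsf2bp, Cpeb1, Stk31 and Dmc1 did not pass again, and Mael did (adjusted p = 0.049). The rises of Smc1b and Hormad1 were as large there, at 4.55 and 2.81. Both comparisons share shGFP 3 and 4 and the shE2F6 libraries, so they are not independent.

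**Figure D5:**
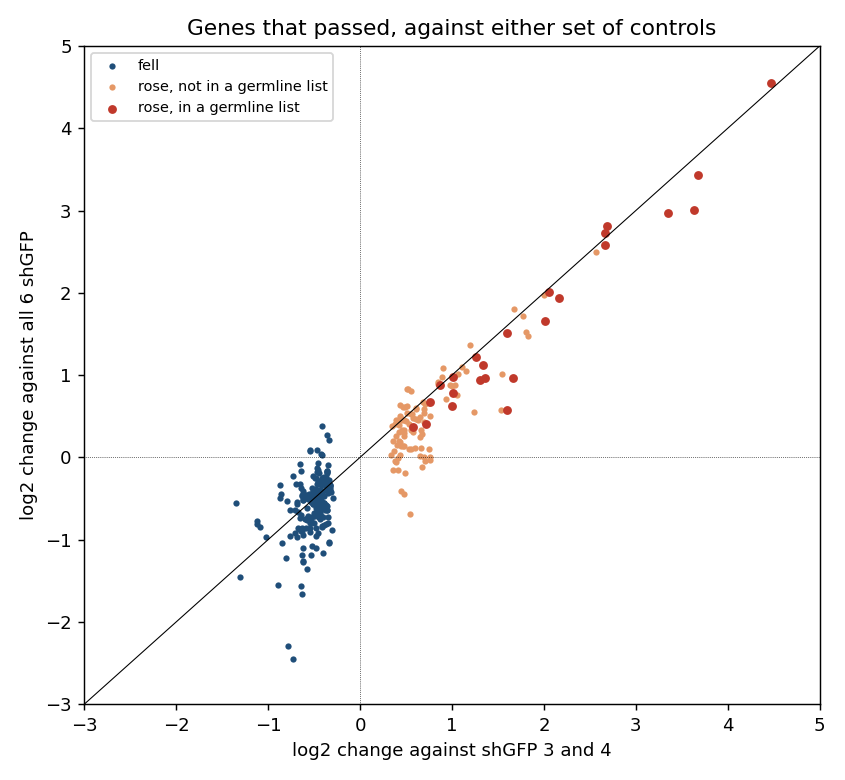
Log2 change of the 121 genes that rose and the 197 that fell, against shGFP 3 and 4 (horizontal axis) and against all 6 shGFP (vertical axis), with the line of equal change. Germline genes (red) lie close to the line or below it and are above 0 on both axes, while 12 of the other rises fall below 0 on the vertical axis.

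Hairpins against HP1γ and β-catenin were set beside shE2F6 for the same genes, with levels only, since all share the 6 shGFP controls. Both libraries lay above all 6 shGFP libraries for 21 of the 24 germline genes with shE2F6, 11 with shHP1r and 5 with shBcat. Over all genes tested, that held for 8.19%, 11.2% and 15.9%, and the 24 were chosen for being high with shE2F6. Dazl was at 26.4 and 41 FPKM with shHP1r and at 4.4 and 4.38 with shBcat, below every control. Stra8 was at 27.9 and 30.4 with shHP1r, above both shE2F6 libraries, and at 1.73 and 1.76 with shBcat. Smc1b was at 2.06 and 3.78 with shHP1r and 3.51 and 2.94 with shBcat, far under its 62.3 and 47.5 with shE2F6. Hormad1 stayed at 15.7 and 16.3 and at 14.4 and 14.6 FPKM, within or next to the control range. Meioc differed between the shHP1r libraries, at 17 and 4.95 FPKM. E2f6 was at 13.3 and 8.9 FPKM with shHP1r and 8.46 and 8.67 with shBcat.

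Levels of the same genes in unperturbed cells came from a separate table in TPM (transcript shares scaled to a fixed total), which is not comparable with FPKM. V6.5 cells in 2i (n = 2) and epiblast-like cells (epiLC) after 24 h and 48 h (n = 2 each) were read, with no test. Of the 24 germline genes that rose with shE2F6, at 48 h 17 (70.8%) were lower in both epiLC libraries than in both 2i libraries and 5 (20.8%) were higher, beside 36.6% lower and 47.8% higher of the 12605 tested genes in that table. At 24 h, 13 were lower and 8 higher, beside 44.5% and 41.5% of those genes. Medians of the 24 were 10.9 TPM in 2i, 11.7 at 24 h and 5.58 at 48 h, and of all tested genes 18.2, 16.8 and 19.6. Stra8 went from 124.5 and 127.0 to 7.29 and 7.39 TPM, and Dazl from 41.6 and 35.7 to 5.68 and 4.86. Hormad1 was at 24.9 and 23.3 TPM in 2i, higher at 24 h with 31.5 and 32.5, and at 6.46 and 5.73 at 48 h. Zcwpw1 and Meioc were also higher at 24 h than in 2i, at 46.2 and 44.4 against 23.9 and 24.8 TPM and at 20.0 and 19 against 9.82 and 9.38. Smc1b was low in both states, at 3.83 and 4.39 and at 3.07 and 2.93 TPM. In 2i, 3 of the 24 had a mean under 1 TPM.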

How the data were processed

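The members and lists were chosen with earlier results of these data known. The authors deposited FPKM values for 12 hairpin libraries and TPM values for cells in 2i and epiLC. TRIzol, DNase treatment and a TruSeq RNA kit were used, per the labels' protocols. Per the submitters' processing notes, tools for the FPKM samples were TopHat2 2.0.13, Cufflinks 2.2.1, Bowtie2 and bcl2fastq 2.18, with the mm10 build, and STAR and RSEM are named for the TPM samples. The FPKM table holds 0 values at 0, so genes at 0 in a library are missing. FPKM lowers all genes where a few transcripts take more of a library. Depth is unknown for every library, and 1 further column of per-sample values was not used.

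From these values log2(FPKM + 1) was computed for genes at 1 FPKM or more in at least 2 of the 4 libraries compared. One limma fit (limma 3.58.1, statmod 1.5.0, R 4.3.3) took all 12 libraries, with group, the high mitochondrial share of 4 libraries, a variance trend and robust moderation, leaving 7 residual degrees of freedom. Tests were two-sided and adjusted by Benjamini-Hochberg over 12705 genes, at a threshold of 0.05. An exact permutation test of 2 against 2 libraries cannot go below 0.333, so none is given. On data simulated for this comparison with 12705 genes, the fit recovered 85 of 100 genes changed by 1 on the log2 scale and 99 of 100 changed by 2, with 6 false calls. Noise was drawn independently for each library there. The simulation therefore does not cover differences between pairs of libraries that the fit does not model. RefSeq names matched 12003 of the 12705 genes.

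Genes were named by rule: E2f6 and its complex, up to 15 rises and 15 falls of largest size among called genes outside the range of all 6 shGFP libraries with a higher mean of at least 2 FPKM (no predicted genes, pseudogenes, ribosomal protein or small RNA genes), every germline list gene that rose, up to 4 members of each other list with the smallest p, and Pou5f1, Sox2, Nanog and Zfp42. Other genes named are list members that did not pass, genes that overlap a named one, or were chosen after their values were seen. Alternatives covered controls, scaling, pseudocount, filter, moderation, pair averages, a replicate block and each shGFP and shE2F6 library left out; shBcat and shHP1r libraries were not left out. Chromatin immunoprecipitation samples and 2 further TPM tables were not analysed here.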

Additional observations from a re-analysis of the deposited data

How the results depend on the processing

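The 4 libraries fitted alone gave 301 rises and 573 falls, and each shGFP pair taken as a group 508 and 1037. With shGFP 1, 2, 5 and 6 as controls the counts were 1823 and 6026. Averaging each pair of libraries first, limma called 0 rises and 0 falls (69 and 164 at an unadjusted p under 0.05), 0 germline rises (20 unadjusted), 0 genes against all 6 shGFP (233 unadjusted), and E2f6 was -1.45 (adjusted p = 0.728). Such averages leave a single value for shE2F6, so little could pass. A minimum of 2-fold left 36 rises, 6 falls and 37 calls against all 6 shGFP. No filter gave 121 falls and 128 calls against all 6, and a minimum of 5 FPKM gave 496. Leaving out each shGFP and shE2F6 library in turn gave 30 to 97 rises, 9 to 134 falls, 16 to 23 germline rises, an E2f6 change of -1.48 to -1.14 and 19 to 3943 calls against all 6 shGFP, whose main count was 298 (3943 and 3447 without shGFP 3 or 4). The cause of these moves was not tested. Under the other alternatives germline rises were 18 to 28.

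Against shGFP 1, 2, 5 and 6, Msmo1 turned to -0.21 and E2f8 to 0.40, and against all 6 shGFP, averaged in pairs or not, to -0.0033 and 0.0836. Against shGFP 1, 2, 5 and 6, 12 of 66 germline genes were called lower and 28 higher, beside 47.4% and 14.3% of all genes; the 12 include Tex19.1 (-1.77) and Rec8 (-1.19). Where shGFP 3 or 4 or an shE2F6 library was left out, its group held 1 library, assumed to vary like the others.

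The matched groups share no replicate number. A fit with a term for each replicate number gave 6732 calls, beside 298 against all 6 shGFP without that term. Numbers 3 to 6 occur only in shGFP, so the fit compared shE2F6 with shGFP 1 and 2 alone. Controls and block thus changed together and cannot be told apart in that count. Same-numbered shE2F6 and shGFP libraries deviated from their group means with correlations of 0.118 and -0.131. The 2 shE2F6 deviations are equal and opposite by construction, so these correlations cannot decide whether the numbers mark pairs. The numbers were taken as names only. No depth is known. Each mean compared rests on 2 libraries, and the spread on all 12 libraries fitted.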
